A study of Mus musculus with 8 samples.

Results

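Integrins, laminins and the proteins that link them hold a cell to its basement membrane, and 38 genes of this machinery were followed in the lungs of newborn mice with and without 1 disrupted copy of Fgf10. The genes were chosen by platform symbol alone: Itga or Itgb plus a number (12 alpha and 9 beta subunits), Lama, Lamb or Lamc plus a number (10 laminin chains), and the 7 linkers Nid1, Nid2, Hspg2, Agrn, Dag1, Npnt and Tinagl1. They are read by 53 of the 62976 features of the array, and by 38 of its 20842 named genes. Itgb1bp1 and Itgb3bp, which encode proteins that are no integrin subunits, were not counted as members. Itgav, the shared partner of several beta subunits, carries a letter and not a number, so it stands outside the selection.

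Lungs came from C57Bl/6J pups kept in a chamber at 20% oxygen from P0 to P3, that is from postnatal day 0 to 3. Total RNA of 4 wild-type samples (WT_normoxia) and 4 samples labelled Fgf10 +/- (TG_normoxia) was hybridised in 1 colour (Cy3), so both groups share the strain, the age and the oxygen. The labels name neither the allele nor the litter or sex of a pup, and do not say whether a library holds 1 pup. The submitters call the 4 samples of each group independent. FGF10 is a growth factor of the lung mesenchyme that drives growth of the epithelium. Values are log2 signals on a common distribution, and a difference is the mean of the libraries labelled Fgf10+/- minus the wild-type mean.

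Fgf10 itself did not bear out the labels: it read 7.46 ± 0.40 in the wild-type libraries and 7.95 ± 0.32 in those labelled Fgf10+/- (SD, n = 4 each), and its features may lie outside the disrupted part. Directions below therefore rest on the labels. All 9 markers of alveolar type 2 cells lay above the array median of 3.47. Of these, 8 were lower in the libraries labelled Fgf10+/- at an unadjusted limma p under 0.05, and Sftpc read 15.98 to 15.99 in all 8 libraries, at the top of the scale. Wild-type replicate 4 stood apart. Its 6 cartilage markers summed to a log2 signal of 14.06, against 6.47 to 7.05 in the other 7 libraries, and its 9 skeletal muscle markers to 12.98, against 7.38 to 7.98. Its 5 fat markers summed to 9.98, against 7.84 to 8.23. What leaving it out does to the members is given after the linkers.

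As background, an integrin is a pair of 1 alpha and 1 beta subunit that spans the membrane and grips the matrix outside and the cytoskeleton inside. Laminins are cross-shaped trimers of an alpha, a beta and a gamma chain. They polymerise into the sheet under epithelium and around vessels and muscle, while nidogens and perlecan tie that sheet to collagen IV, and agrin and dystroglycan tie it to cells. In the developing lung these sheets lie between the epithelium that FGF10 acts on and the mesenchyme that makes it.

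No member passed limma's test at a Benjamini-Hochberg adjusted p of 0.05 over all genes, where the background was 0.0% (0 of 20842 genes). At an unadjusted p under 0.05 there were 2 members, Itga1 with a higher and Tinagl1 with a lower mean, or 5.26% of the 38, against 11.0% of all genes. The groups did not overlap for 4 members, or 10.5%, against 7.39% of all genes. These were Itga1 and Itgb6 on the higher side, where the background was 2.99%, and Tinagl1 and Agrn on the lower, where it was 4.40%. Both shares are near or below the background. The median difference over the 38 members was 0.04, with 22 higher and 16 lower means, and over all genes it was 0.00.

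The measurement was tight enough to bound most members. The 95% interval of the difference lay within -1 to 1, less than a doubling either way, for 35 of the 38 members, and for 72.6% of all genes. It lay within -0.5 to 0.5 for 20 members, and for 29.8% of all genes. The median within-group SD was 0.18 over the members and 0.31 over all genes. Of the 38 members 32 lay in the brighter 50% of genes, so the comparison with all genes is not matched for signal. These intervals are those of the brightest feature of each gene. The 3 members whose intervals reached beyond -1 or 1 were Itga2b, Itgb8 and Npnt.

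**Figure D1:**
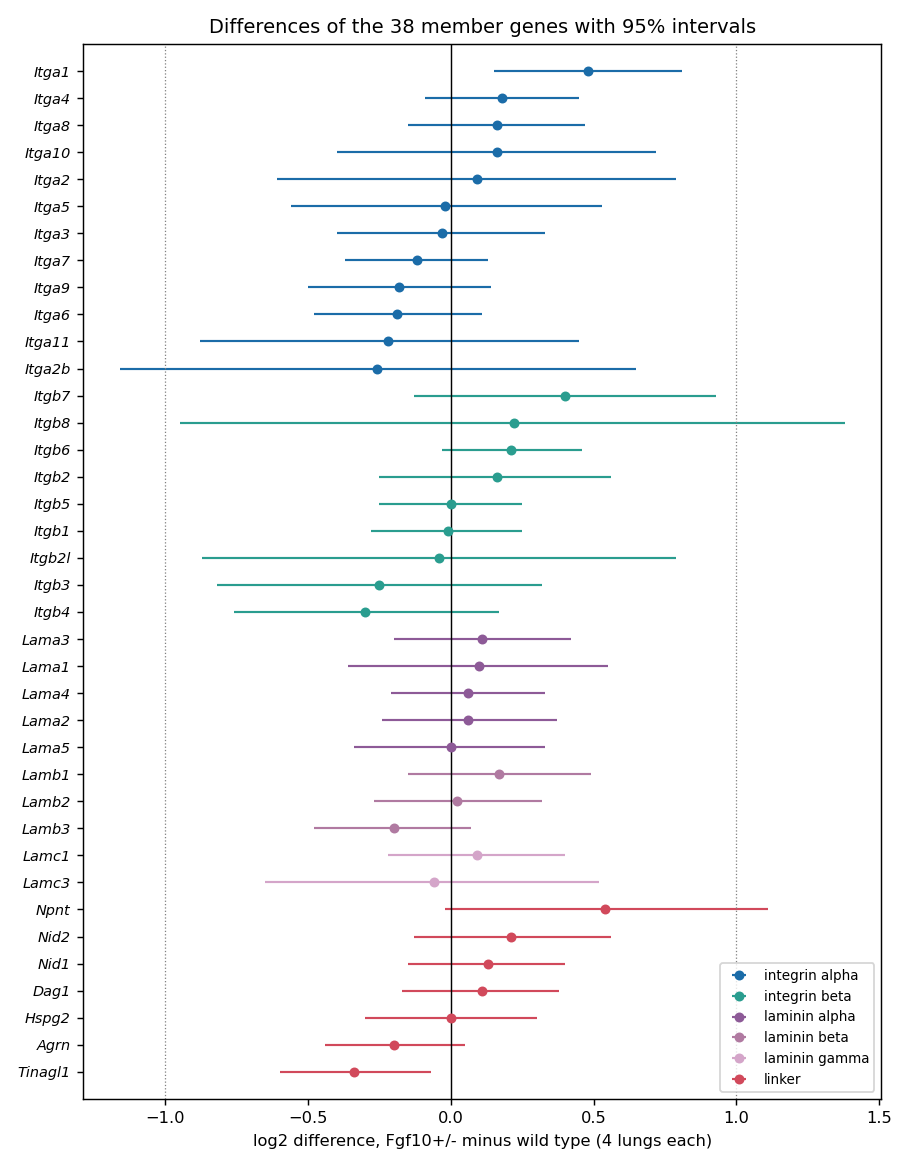
Log2 difference of each of the 38 genes (libraries labelled Fgf10+/- minus wild type, n = 4 each) with limma's 95% interval, coloured by role; the dotted lines stand at -1 and 1. Only the intervals of Itga1 and Tinagl1 leave out 0, and only those of Itga2b, Itgb8 and Npnt cross a dotted line.

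Among the alpha subunits, Itga1 had the highest difference. It encodes the subunit that, with the beta1 chain, binds collagen IV and other collagens, and it is known from smooth muscle, fibroblasts and small vessels. Its wild-type replicates 1 to 4 read 9.06, 9.40, 8.92 and 9.25, and those labelled Fgf10+/- read 9.48, 9.68, 9.53 and 9.85. All 4 of the latter lay above all 4 of the former, with a gap of 0.074 between the nearest libraries. The means were 9.16 ± 0.21 and 9.64 ± 0.17 (SD, n = 4 each), which differ by 0.48 on the log2 scale (SE 0.14), or 1.39-fold. The two-sided exact permutation p was 0.0286, the smallest that 70 assignments allow, and limma's adjusted p was 0.275. Every gene whose groups do not overlap, 7.39% of all genes, gets this same exact p. For Itga1, and for Itgb6, Tinagl1 and Agrn below, it therefore restates the lack of overlap and adds nothing to it. Under limma's robust variance trend that adjusted p was 0.0406, the single pass by a member, where the same setting called 1.99% of all genes. The second, dimmer Itga1 feature differed by 0.26 (SE 0.20) and its groups overlapped.

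Itga1 lies on mouse chromosome 13, as Fgf10 does, with starts 3.61 Mb apart in GRCm38.p6. The collagen receptor subunit gene Itga2 is its neighbour, 3.78 Mb from Fgf10, and differed by 0.09 (95% interval -0.61 to 0.79). Nnt, on the other side of Fgf10, read 9.56 ± 0.04 in wild type and 10.24 ± 0.06 in the libraries labelled Fgf10+/- (SD), without overlap. It differed by 0.68 (95% interval 0.47 to 0.89, limma adjusted p = 0.0767). Whether position bears on the Itga1 value was not tested.

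Markers of mesenchymal cells, none past limma's adjusted test, are given beside Itga1. The mean of each of the 6 smooth muscle markers was higher in the group labelled Fgf10+/-, and the summed log2 signal of the list ran from 14.67 to 14.80 in wild type and from 14.86 to 14.94 in the other group, though 4 of the 6 did not reach an unadjusted p under 0.05. For the 6 fibroblast markers, 5 of them with a higher mean, the sums ran from 15.42 to 15.81 and from 15.80 to 16.03, so they overlapped, and 3 did not reach that level. None of these 12 markers lay under the array median. The 8 endothelial markers had a median difference of 0.04, and 0 reached that level. Of 5 mesothelial markers 4 had a higher mean, none of them at that level, while Krt19 (-0.41) was lower at that level. The sums of the 5 overlapped (12.55 to 12.83 and 12.23 to 13.36). The part of these cells in the Itga1 result was not tested, and in whole lungs a change in the number of such cells and a change in RNA per cell cannot be told apart.

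Itga8 encodes the receptor subunit that recognises nephronectin and is a gene of lung mesenchyme. Its wild-type replicates 1 to 4 read 9.78, 10.16, 10.00 and 10.14 and those labelled Fgf10+/- 10.01, 10.26, 10.07 and 10.38, so the groups overlapped, and the difference of 0.16 (95% interval -0.15 to 0.47) did not pass. Its ligand gene Npnt is described with the linkers below.

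The laminin-binding alpha subunits Itga3, Itga6 and Itga7 had lower means, none past the test. Itga6, which pairs with the beta4 chain in hemidesmosomes, read 12.06, 12.18, 12.04 and 11.81 in wild type and 11.94, 11.85, 11.61 and 11.96 in the libraries labelled Fgf10+/-. Most wild-type values were the higher ones, but wild-type replicate 4 lay below 3 of the other group, and the difference was -0.19 (95% interval -0.48 to 0.11). Without wild-type replicate 4 the groups did not overlap and the difference was -0.26 (limma adjusted p = 0.462). Itga7, the laminin receptor subunit of muscle, differed by -0.12, and by -0.19 without overlap once wild-type replicate 4 was left out (limma adjusted p = 0.517). Cardiac muscle markers were lower as well, 6 of 7 at an unadjusted limma p under 0.05. Their sums ran from 13.77 to 14.26 in wild type and from 12.98 to 13.55 in the other group. Of 9 skeletal muscle markers, 3 of them under the array median, 8 had a lower mean and 1 reached that level. The skeletal sum peaked in wild-type replicate 4, the lowest wild-type library for Itga7 (8.03). The 6 smooth muscle markers went the other way, each with a higher mean (sums given beside Itga1). The part of these muscles in the Itga7 value was not tested. Itga3, an epithelial laminin receptor subunit, differed by -0.03.

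Itga4 and Itga9 are close relatives that bind VCAM1, fibronectin and tenascin, and their differences had opposite signs. Itga4 read 9.06, 9.32, 9.13 and 9.32 in wild type and 9.20, 9.42, 9.44 and 9.49 in the other group, a difference of 0.18 (limma adjusted p = 0.629). Its second feature, near the floor, differed by -0.23, so the average of both features was -0.02. Itga9 differed by -0.18 (limma adjusted p = 0.698). Of the remaining subunits, Itga5, the fibronectin receptor subunit, differed by -0.02, with replicate 3 of the libraries labelled Fgf10+/- at 4.85 and the other 7 libraries between 5.35 and 5.92. The platelet subunit gene Itga2b differed by -0.26, from 3.10 to 4.98 over the 8 libraries, close to the array median. It was -0.56 without wild-type replicate 4 and 0.07 without wild-type replicate 2, so 1 library decides its sign. Of 6 platelet and megakaryocyte markers, 2 of them under the array median, 5 had a lower mean. The sums of the 6, in which the brightest marker Pf4 (0.14) weighs most, overlapped (10.08 to 10.88 in wild type, 10.37 to 10.74 in the other group).

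Itga10 and Itga11, collagen receptor subunits known from cartilage and from fibroblasts, were highest in the library that stood apart. Itga10 read 6.57, 6.47, 6.50 and 7.47 in wild type and 6.63, 6.85, 6.99 and 7.18 in the libraries labelled Fgf10+/-. Itga11 read 6.06, 6.15, 5.85 and 7.16 and 6.21, 6.30, 5.71 and 6.12. Wild-type replicate 4 was the highest library for both genes, and it is the one with the high cartilage markers. Without it the Itga10 difference was 0.40 in place of 0.16, with all 4 libraries labelled Fgf10+/- above the other 3, and the Itga11 difference was 0.07 in place of -0.22. Neither passed in any setting, and the part of cartilage RNA in these values was not tested.

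**Figure D2:**
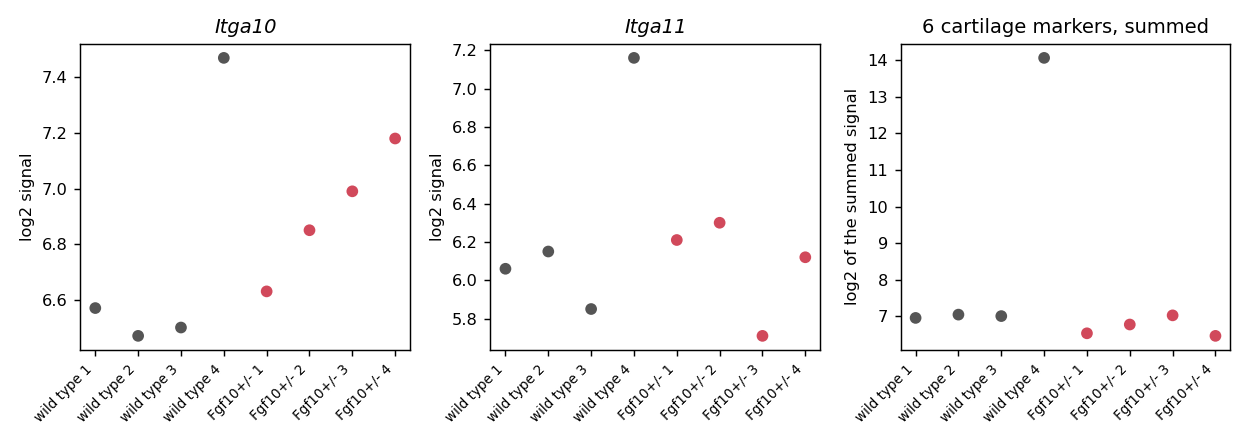
Log2 signal of Itga10 (left) and Itga11 (middle) and log2 of the summed signal of 6 cartilage markers (right) in each of the 8 libraries, wild type in grey and those labelled Fgf10+/- in red. Wild-type replicate 4 is highest in all 3 panels, at 7.47, 7.16 and 14.06.

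Of the 9 beta subunits, Itgb6 alone had groups that did not overlap. It encodes the epithelial subunit that, paired with alpha-v, activates latent TGF-beta. Wild-type replicates 1 to 4 read 8.37, 8.26, 8.39 and 8.25 and those labelled Fgf10+/- 8.42, 8.63, 8.41 and 8.65. Replicates 1 and 3 of the latter group lay just above the highest wild-type library, with a gap of 0.025. The difference was 0.21 (SE 0.11, exact permutation p = 0.0286, limma adjusted p = 0.520). The second Itgb6 feature, close to the array median, differed by 0.00 (SE 0.32). Itgav read 6.88 in wild type and 6.89 in the other group, a difference of 0.01 (95% interval -0.35 to 0.38).

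Itgb4, the hemidesmosome subunit that pairs only with alpha6, read 6.46, 6.93, 6.54 and 6.61 in wild type and 6.87, 6.25, 6.25 and 5.99 in the libraries labelled Fgf10+/-. Replicates 2, 3 and 4 of the latter lay below every wild-type library, while replicate 1 lay among them. The difference was -0.30 (95% interval -0.76 to 0.17; limma adjusted p = 0.651), and it was -0.47 without that replicate 1.

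Itgb1, the common partner of most alpha subunits, did not separate the groups. It read 9.99, 10.33, 10.32 and 10.32 in wild type and 10.20, 10.31, 10.22 and 10.18 in the libraries labelled Fgf10+/-, a difference of -0.01 (95% interval -0.28 to 0.25). Its dimmer feature differed by 0.25 without overlap (unadjusted p = 0.0380 in limma fitted to every named feature, adjusted p = 0.441), so the features disagree. Itgb5, a vitronectin receptor subunit, differed by 0.00 (95% interval -0.25 to 0.25).

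The beta subunits of blood cells did not pass either. Itgb7, a subunit of lymphocytes, read 6.71, 6.73, 5.71 and 6.46 and 6.64, 6.96, 6.80 and 6.78, where the low wild-type replicate 3 sets most of the difference of 0.40. Without that library it was 0.17. Itgb2, the common subunit of leukocytes, differed by 0.16, while 6 of 7 leukocyte markers had a higher mean and their sums overlapped (13.26 to 13.97 in wild type, 13.28 to 14.24 in the other group). Itgb3, the beta subunit of platelets and of vascular cells, differed by -0.25, with replicate 1 of the libraries labelled Fgf10+/- at 9.23 and the other 3 between 8.41 and 8.54. It was -0.43 without that replicate 1, -0.39 without wild-type replicate 4 and -0.10 without wild-type replicate 2. Itgb8 and Itgb2l had means under the array median, so their differences of 0.22 and -0.04 describe signals near the floor. The Itgb8 value turned to -0.29 without replicate 3 of the libraries labelled Fgf10+/-.

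**Figure D3:**
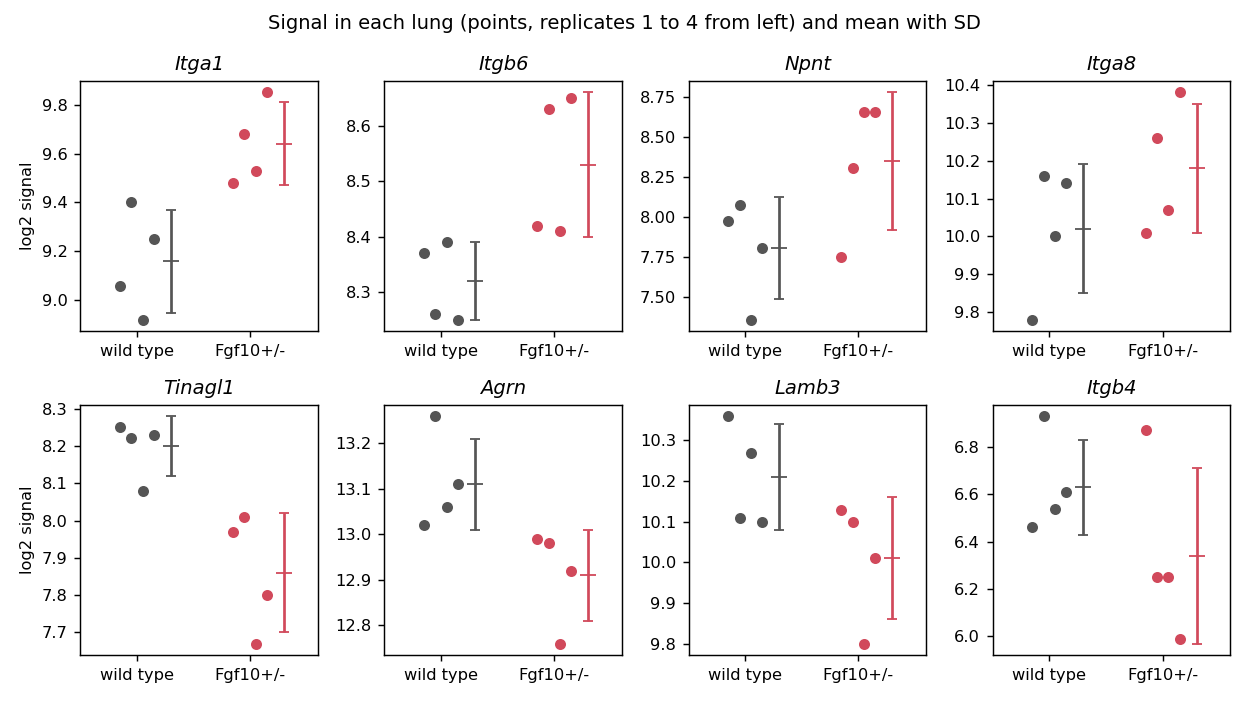
Log2 signal of 8 members in each library (points, replicates 1 to 4 from left to right) with the mean and SD of each group (n = 4), on an axis of its own for each gene. Itga1 and Itgb6 are higher, and Tinagl1 and Agrn lower, in the libraries labelled Fgf10+/- without overlap, while the other 4 overlap.

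The 10 laminin chains showed the narrowest spread of differences, from -0.20 to 0.17, with a median of 0.06. None had groups that did not overlap, and the interval of 8 of the 10 lay within -0.5 to 0.5. Lama5, the main alpha chain under lung epithelium, read 11.70, 12.01, 11.58 and 12.05 in wild type and 11.70, 11.87, 11.73 and 12.03 in the libraries labelled Fgf10+/-. The latter lay within the wild-type range, and the difference was -0.00 (95% interval -0.34 to 0.33). Lama4, an alpha chain of vessel walls, read 10.56, 10.70, 10.60 and 10.86 and 10.63, 10.85, 10.63 and 10.85, a difference of 0.06. Lama3, the alpha chain of epithelial hemidesmosomes, read 8.70, 8.82, 8.55 and 8.88 and 8.84, 9.04, 8.59 and 8.91, and its difference of 0.11 was 0.14 on its second feature. Lama2, the chain of muscle and nerve, differed by 0.06. Beside it, 3 of 4 measured nerve and Schwann cell markers had a lower mean, and only Mbp (-0.43) reached an unadjusted limma p under 0.05. The sums, in which Mbp weighs most, ran from 9.52 to 9.83 in wild type and from 9.23 to 9.48 in the other group. Muscle markers are given beside Itga1 and Itga7, and the part of either set was not tested. Lama1, an embryonic chain, differed by 0.10, and by -0.07 without replicate 1 of the libraries labelled Fgf10+/-. The Lama1 values were 7.27, 7.31, 7.31 and 7.26 in wild type and 7.90, 7.30, 6.90 and 7.44 in the other group, where the SD was 0.41 against 0.03.

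Lamb1 and Lamc1, the beta and gamma chains shared by most laminins of the early lung, had slightly higher means. Lamb1 read 12.12, 12.29, 12.19 and 12.55 in wild type and 12.45, 12.49, 12.23 and 12.66 in the libraries labelled Fgf10+/- (difference 0.17, 95% interval -0.15 to 0.49). Lamc1 read 12.27, 12.65, 12.33 and 12.75 and 12.55, 12.60, 12.51 and 12.69 (difference 0.09, 95% interval -0.22 to 0.40). In both genes wild-type replicate 4 was the highest wild-type library, and without it the differences were 0.26 and 0.17, still with an adjusted p above 0.05 in limma.

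Lamb3, the beta chain that joins Lama3 in anchoring laminin, had the lowest difference among the chains. It read 10.36, 10.11, 10.27 and 10.10 in wild type and 10.13, 10.10, 9.80 and 10.01 in the libraries labelled Fgf10+/-, and replicate 3 of the latter was the lowest. The difference was -0.20 (95% interval -0.48 to 0.07; limma adjusted p = 0.601). Lamb2, the beta chain of vessels and mature alveoli, read 9.86, 10.13, 9.80 and 10.21 and 10.15, 10.02, 9.87 and 10.05, a difference of 0.02 (95% interval -0.27 to 0.32). Lamc3 read 4.23, 4.91, 4.61 and 4.95 and 4.66, 4.97, 4.84 and 3.98, with replicate 4 of the libraries labelled Fgf10+/- the lowest of the 8. Its difference of -0.06 was 0.15 without that library.

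The linkers held the widest contrasts, in both directions. Npnt encodes nephronectin, the ligand that pairs with the alpha8 integrin. Its wild-type replicates read 7.98, 8.08, 7.36 and 7.81, and those labelled Fgf10+/- read 7.75, 8.31, 8.66 and 8.66. Replicates 2, 3 and 4 of the latter lay above every wild-type library, but replicate 1 lay below 3 of them. The means were 7.81 ± 0.32 and 8.35 ± 0.43 (SD, n = 4 each), the highest difference of any member at 0.54 (SE 0.25, 95% interval -0.02 to 1.11), and it did not pass (exact permutation p = 0.114; limma adjusted p = 0.476). It was 0.74 without that replicate 1 and 0.39 without wild-type replicate 3. The second Npnt feature, almost as bright, differed by 0.19 (SE 0.30).

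Tinagl1 encodes a secreted basement membrane protein related to the tubulointerstitial nephritis antigen. Wild-type replicates 1 to 4 read 8.25, 8.22, 8.08 and 8.23 and those labelled Fgf10+/- 7.97, 8.01, 7.67 and 7.80. All 4 of the latter were lower, with a gap of 0.073. The means were 8.20 ± 0.08 and 7.86 ± 0.16 (SD, n = 4 each), a difference of -0.34 (SE 0.11, 95% interval -0.60 to -0.07; exact permutation p = 0.0286; limma adjusted p = 0.328). The second feature differed by -0.19 (SE 0.21) with overlap.

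Agrn encodes agrin, a heparan sulfate proteoglycan that binds laminin on one side and dystroglycan on the other. It read 13.02, 13.26, 13.06 and 13.11 in wild type and 12.99, 12.98, 12.76 and 12.92 in the libraries labelled Fgf10+/-. The groups were parted by 0.034, and the difference was -0.20 (SE 0.11, exact permutation p = 0.0286, limma adjusted p = 0.549). Its second feature differed by -0.10 (SE 0.20). With median centring of the arrays the Agrn groups overlapped, and with all features of a gene averaged neither Tinagl1 nor Agrn had groups apart.

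Epithelial markers are given beside Tinagl1, Agrn, Lamb3, Itga6 and Itgb4. These 5 genes were picked for their lower means, so a direction shared with lower markers was set by that choice. Only Tinagl1 among them reached an unadjusted limma p under 0.05. Of 9 markers of alveolar type 1 cells 8 had a lower mean in the group labelled Fgf10+/-, 4 of them at that level, and the list summed to a log2 signal that ran from 15.09 to 15.13 in wild type and from 14.81 to 14.98 in the other group. The 9 alveolar type 2 markers summed to between 16.88 and 16.96 and between 16.66 and 16.73. Of 6 ciliated cell markers 4 were lower at that level, and the groups of Tppp3 (-0.48) and Dynlrb2 (-0.63) did not overlap. The ciliated sums, in which the brightest marker Tubb4b (-0.07) weighs most, overlapped (13.75 to 14.12 and 13.66 to 13.94). None of these markers lay under the array median, and their part in the values of those 5 genes was not tested. Itgb6 and Lama3, described above as genes of epithelium, had higher means instead. Itga3, also described so, differed by -0.03, and Lama5, the chain under lung epithelium, by -0.00.

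The remaining linkers did not pass either. Nid1 and Nid2, the nidogens that bridge laminin and collagen IV, differed by 0.13 (95% interval -0.15 to 0.40) and 0.21 (95% interval -0.13 to 0.56). The 3 features of Nid1 gave 0.13, -0.13 and 0.14. Dag1, the dystroglycan gene, differed by 0.11 (95% interval -0.17 to 0.38). Hspg2, which encodes perlecan, differed by 0.00 (95% interval -0.30 to 0.30).

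Members were counted again without wild-type replicate 4, the library that stood apart. Without it 20 of the 38 differences moved by more than 1.5 times, most of them small ones, and 4 turned sign, those of Itga11, Itgb1, Lama5 and Lamc3. The groups then did not overlap for 7 members, or 18.4%, against 13.7% of all genes. Besides Itga1, Itgb6, Tinagl1 and Agrn these were Itga10 on the higher side (background 6.0%) and Itga6 and Itga7 on the lower (7.68%). Itga1, at 0.51, and Tinagl1, at -0.32, changed little. Lama2 and Lama4 both differed by 0.12 in place of 0.06, and Dag1 by 0.05 in place of 0.11. No member passed limma's adjusted test without this library. Counts of moved differences are not given for the other libraries, so these do not rank this one among them. The alpha median of -0.03 was -0.01 without wild-type replicate 4, and 0.10 without replicate 3 of the libraries labelled Fgf10+/-. The beta median of 0.00 was 0.04 without wild-type replicate 4, and 0.15 without wild-type replicate 1.

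Of the 38 members 14 were read by 2 or more features. For 10 of these genes the features agreed in sign, and for Itga4, Itgb1, Itgb2l and Nid1 they did not. Each of Itga1, Itgb6, Tinagl1 and Agrn was apart in its brightest feature and overlapped in its second.

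Members varied between libraries of one group as well. Counted over the 38 genes, replicate 3 of the libraries labelled Fgf10+/- was the lowest of the 8 libraries for 10 members, and wild-type replicates 1 and 3 were so for 8 and 7. Wild-type replicate 2 was the highest for 8 members, and wild-type replicate 4 and replicates 2 and 4 of the other group for 7 each. The mean deviation of the laminin chains from their own means was -0.15 and -0.13 in wild-type replicates 1 and 3, 0.07 and 0.14 in wild-type replicates 2 and 4, and 0.06, 0.10, -0.13 and 0.04 in the libraries labelled Fgf10+/-. The range within wild type was wider than the median difference of 0.06 between the groups.

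**Figure D4:**
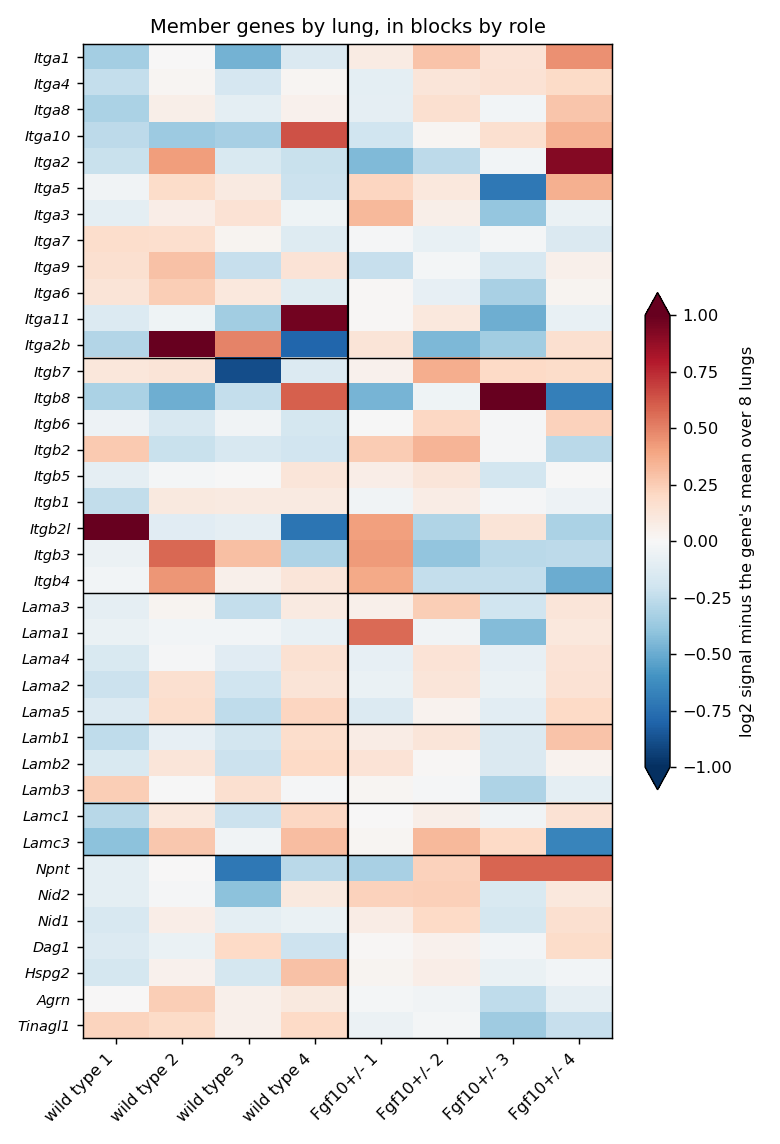
Log2 signal of each member minus its mean over the 8 libraries, with genes in blocks by role (alpha and beta integrins, laminin alpha, beta and gamma chains, linkers), libraries in columns and a colour scale that ends at -1 and 1. Tinagl1 lies above its mean in every wild-type library and below it in every library labelled Fgf10+/-, and Itga10 and Itga11 are darkest in wild-type replicate 4.

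Since the groups were apart for Itga1, Itgb6, Tinagl1 and Agrn, their promoters are shown here. Sequences are RefSeq's (GRCm38.p6), 300 bases around the start that lies farthest upstream, all on the minus strand and written 5′ to 3′ along the gene. Capitals mark matches, on either strand, to any of 4 motifs, none of which contains another. The TATA box was searched as TATAAA. Matches to CCAAT were searched as the box of that name. The GC box, which binds Sp factors, was searched as GGGCGG. The core that TEAD factors bind was searched as GGAATG. The windows are chr13:115101915-115102214 for Itga1, chr2:60722554-60722853 for Itgb6, chr4:130175073-130175372 for Tinagl1 and chr4:156197439-156197738 for Agrn.
Itga1: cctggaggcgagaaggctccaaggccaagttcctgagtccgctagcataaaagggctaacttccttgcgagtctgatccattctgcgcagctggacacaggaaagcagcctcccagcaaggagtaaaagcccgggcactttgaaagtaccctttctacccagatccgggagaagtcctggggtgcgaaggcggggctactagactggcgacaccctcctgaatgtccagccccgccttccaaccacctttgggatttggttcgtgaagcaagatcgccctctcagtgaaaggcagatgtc
Itgb6: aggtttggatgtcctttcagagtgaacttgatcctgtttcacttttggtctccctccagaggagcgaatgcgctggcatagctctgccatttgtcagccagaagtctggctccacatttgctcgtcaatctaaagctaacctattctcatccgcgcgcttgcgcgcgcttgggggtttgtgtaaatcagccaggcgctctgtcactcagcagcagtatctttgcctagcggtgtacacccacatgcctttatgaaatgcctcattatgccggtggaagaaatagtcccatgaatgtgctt
Tinagl1: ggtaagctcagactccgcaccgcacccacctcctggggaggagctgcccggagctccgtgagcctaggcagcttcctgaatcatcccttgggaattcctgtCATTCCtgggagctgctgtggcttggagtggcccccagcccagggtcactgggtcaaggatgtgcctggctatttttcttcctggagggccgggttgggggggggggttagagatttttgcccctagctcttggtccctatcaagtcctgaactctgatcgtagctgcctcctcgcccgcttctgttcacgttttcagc
Agrn: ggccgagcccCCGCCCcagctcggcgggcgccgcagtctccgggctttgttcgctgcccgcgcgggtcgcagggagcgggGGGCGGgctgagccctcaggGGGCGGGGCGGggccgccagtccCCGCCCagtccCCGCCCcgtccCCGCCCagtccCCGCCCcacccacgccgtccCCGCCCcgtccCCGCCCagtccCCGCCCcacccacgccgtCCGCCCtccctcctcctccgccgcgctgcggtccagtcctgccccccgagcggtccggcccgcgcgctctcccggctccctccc
The 4 windows shown share none of these motifs. Agrn had 12 GC boxes, overlapping ones counted, at 83.3% GC, Tinagl1 had 1 TEAD match at 60.0% GC, and Itga1 (56.7% GC) and Itgb6 (50.3% GC) had no match. A second start of Tinagl1 had 4 GC boxes and no TEAD match, that of Agrn had 2 GC boxes, and that of Itgb6 had no match. Of 38 members 27 have a promoter in the table, with 34 windows in all. Among these windows 52.9% held a GC box (35.7% of all 32851 promoters of that length), 17.6% a CCAAT box (37.4%), 14.7% a TEAD match (14.7%) and 0 a TATA box (13.6%). Alternative starts of 1 gene can overlap, so windows are not independent.

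Around the members, other genes of the same pathway were read from lists. Each list is set against the background of 4.74% of all genes with a higher and 6.29% with a lower mean at an unadjusted p under 0.05, and no gene of any list passed limma's adjusted p of 0.05. Among 23 proteins of the cytoplasmic side of integrin adhesions, 2 were higher, 2 were lower and 19 did not reach the unadjusted level, with a median difference of -0.01. The higher ones were Crk (0.41), an adaptor, and Lims1 (0.28), the partner of integrin-linked kinase. The lower ones were Parvg (-0.52), a parvin of blood cells, and the kinase gene Src (-0.79), whose signal lay near the array median. Tln1, the talin that activates integrins, differed by -0.04.

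Among 23 basement membrane collagens and partners, 2 were higher, 2 were lower and 19 did not reach that level, with a median of 0.03. Fras1 (0.34), which anchors epithelium to the underlying matrix in the embryo, and Fbln2 (0.48), a fibulin, were higher. Egfl6 (-0.60) and Col4a3 (-0.29) were lower, and these 4 genes, or 17.4% of the list, had groups that did not overlap, against 7.39% of all genes. Col4a3 read 8.57, 8.60, 8.55 and 8.40 in wild type and 8.29, 8.31, 8.10 and 8.27 in the libraries labelled Fgf10+/-. It joins Col4a4 (-0.25) and Col4a5 (-0.20) in the collagen IV network of mature alveoli. Neither of these 2 reached the unadjusted level, nor did Col4a1 (0.21) and Col4a2 (0.02) of the widespread network.

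Of 19 measured genes of the dystrophin complex and of dystroglycan glycosylation 0 reached that level (median -0.01), the smallest p belonging to Pomgnt1 (-0.24) and Large2 (-0.40). Among 9 partners of hemidesmosomes and tetraspanins Sdc1, a syndecan of epithelium, was lower (-0.47) and 8 did not reach it (median -0.15).

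The interstitial ligands of integrins had a higher median than the other lists. Of 19 measured, 6 were higher, 0 were lower and 13 did not reach that level, with a median of 0.29. The 6 were Thbs2 (0.88), a thrombospondin, Fbn1 (0.38), the fibrillin of microfibrils, Vcam1 (0.26), the counter-receptor of the alpha4 integrins, Postn (0.33), periostin of fibroblasts, Ltbp1 (0.40), which stores latent TGF-beta, and Vtn (1.25), vitronectin, whose wild-type replicate 1 read 3.63, near the floor. Fn1, fibronectin, differed by 0.29 with an unadjusted limma p of 0.0544. The fibroblast marker sums given beside Itga1 had a higher range with overlap, and their part in these values was not tested.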

How the data were processed

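The members and lists were chosen with earlier results of these data known, and no list or test is offered as independent of them. Whole-lung RNA of 8 samples was read on 1-colour arrays. The log2 values were deposited by the authors already quantile normalized, as the values show: sorted arrays differed by at most 0.00418. The authors ran limma, per the submitters' processing notes, without a stated version. How background was corrected, and any batch, is not given in the sources read here, so the compression of differences near the floor is unknown. The number of arrays, 4 in each group, limits the precision, and p-values measure the spread between these samples.

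Features were named from the platform annotation, with symbols updated by accession against RefSeq (29036 of 31465 named features matched). Features with a blank were left out (0 among the 53 of the members), and the brightest feature stood for its gene. limma 3.58.1 in R 4.3.3 (lmFit on group, eBayes, two-sided, Benjamini-Hochberg over 20842 genes) was the main test and was tested on simulated data. The simulated data held planted differences larger than that of any member, so they do not show how often differences as small as the members' would be found. Single values had an exact permutation test over 70 assignments, whose p is fixed at 0.0286 wherever the groups do not overlap. A member's values were given for every array where its unadjusted p was under 0.05, where the groups did not overlap, for the 2 smallest p in each role, and for 8 genes fixed by name. Those of Itga10, Itga11 and Lama1 were added outside this rule, with their values known. Lists outside the members were described by counts. Markers of 14 cell types were read and are given beside members known from those cells. Epithelial ones were set instead beside members picked for their lower means. Marker sums were taken over unlogged signals, so the brightest markers of a list weigh most. Alternatives were another rule for features, 3 rescalings, 2 filters on dim genes, a variance trend, array weights, the replicate block, and leaving out libraries. Figures were drawn with matplotlib 3.10.9.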

Additional observations from a re-analysis of the deposited data

Results flagged for a closer look

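In 5 of 76 groups of 4 libraries (38 members in 2 groups), 1 library lay far from the other 3 by Dixon's gap ratio, the gap to the nearest library over the group's whole range. Chance flags about 1 in 20 groups, or 3.8 of 76. Itga10 in wild-type replicate 4 was at 7.47 with the others between 6.47 and 6.57 (ratio 0.900), and the cartilage markers were high in the same library. Itga2 in wild-type replicate 2 was at 5.73 with the others between 5.09 and 5.16 (ratio 0.883). Itgb1 in wild-type replicate 1 was at 9.99 with the others between 10.32 and 10.33 (ratio 0.981). Itgb2 in wild-type replicate 1 was at 8.28 with the others between 7.80 and 7.86 (ratio 0.860). Itgb3 in replicate 1 of the libraries labelled Fgf10+/- was at 9.23 with the others between 8.41 and 8.54 (ratio 0.852).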

How the results depend on the processing

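Of 19 members followed through every alternative, Itga1 passed an adjusted p of 0.05 in limma under a robust variance trend, and no other passed in any. With that setting 1 of 38 members was called, and with each library left out in turn 0 were. Members higher at an unadjusted p under 0.05 numbered 1 in the main setting, 0 with all features averaged, 2 with array weights or a variance trend, and 3 with every feature on its own, with the dimmer 50% of genes left out, or without a pair of libraries (replicate 4 of wild type, replicate 3 of those labelled Fgf10+/-). Leaving out 1 library gave 1 to 2. Lower ones numbered 1, and 0 with features averaged or without that pair of libraries, 2 with the variance trend, and 1 to 2 with 1 library left out. Over all 20842 genes, in either direction, 2298 reached that level in the main setting and 2199 with features averaged. There were 2816 with array weights, 2547 with the variance trend and 2553 without that pair. With 1 library left out there were 1822 to 2658. The level was reached by 3276 of 31425 features on their own, and by 1904 of 10421 genes with the dimmer 50% left out. Members apart on the higher side numbered 2, and 1 with features averaged, 7 without that pair, and 2 to 5 with 1 library left out. On the lower side there were 2, and 0 with features averaged, 1 with median centring, 4 without that pair, and 2 to 4 with 1 library left out. Groups of fewer libraries separate more easily. The median over alpha subunits of -0.03 was 0.11 without that pair and ran from -0.12 to 0.10 with 1 library left out. That over beta subunits, 0.00, ran from -0.01 to 0.15. Laminin and linker medians ran from 0.01 to 0.15 and 0.06 to 0.13.

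With 1 library left out, 14 of the 38 members turned sign in at least 1 fit, among them Itga2, Itga2b, Itga3, Itga5, Itga11, Itgb2l, Itgb5, Itgb8, Lama1 and Hspg2, and the cause was not tested. Of the 19 members followed through every alternative, 5 turned sign. Itga4 was -0.02 with features averaged and -0.23 on its second feature. Itgb1 was 0.01 with array weights or median centring, 0.02 without the pair of libraries, 0.12 with features averaged and 0.25 on its second feature, and ran from -0.10 to 0.01 with 1 library left out. Lama5 was 0.00 with 75th percentile centring, 0.02 with quantile normalization or median centring, 0.05 with array weights, 0.10 without the pair, and -0.09 to 0.07 with 1 library left out. Lamb2 was 0.14 without the pair and ran from -0.04 to 0.09 and Lamc3 from -0.21 to 0.15 with 1 library left out. Whether replicate numbers pair the samples is not in the labels, and these values cannot settle it. Deviations of same-numbered libraries correlated at 0.113, 0.0226, 0.0178 and 0.0776, all positive, and 2 of 4 wild-type libraries matched their own number best. Over all genes, 2469 reached an unadjusted limma p under 0.05 with the replicate block and 2298 in the main setting. With the replicate block Itga1 differed by 0.48 (limma adjusted p = 0.308), the members reaching an unadjusted p under 0.05 were 1 in each direction, and 0 passed. Signals near the floor (Itgb8, Itgb2l) have no usable order.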
